A study of Caenorhabditis elegans with 12 samples.

Results

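The histone genes of Caenorhabditis elegans were taken as all genes whose WBcel235 symbol is his- followed by a number. Of 46934 gene entries in the tables, 72 were histone genes by that rule. RNA was measured by paired-end sequencing of whole prefertile adult hermaphrodites, fed the Escherichia coli strain OP50 at 20 °C. The 12 libraries came from 4 genotypes with 3 independent harvests each: the eat-2(ad1116); dis-3(L75Q) double mutant (strain IJ2290), dis-3(L75Q) (strain VC40130), eat-2(ad1116) (strain IJ173) and wild type (N2). DIS-3 is a ribonuclease that works with the RNA exosome, and eat-2 encodes a nicotinic acetylcholine receptor subunit of the pharynx whose mutants pump slowly and are used as a genetic model of dietary restriction. Each mutant genotype is represented by 1 strain, and each library holds RNA of a whole population of worms. The dis-3 allele changes 1 amino acid, so the level of dis-3 RNA is no check of the labels.

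Histones package DNA into nucleosomes, each built from pairs of H2A, H2B, H3 and H4, with H1 on the linker DNA between them. The replication-dependent genes are transcribed mainly in S phase; their mRNAs typically end in a stem-loop that is bound by the stem-loop binding protein (CDL-1 in the worm), not in a poly(A) tail. Variant genes, among them several of H3.3, typically carry introns and poly(A) signals and are used outside S phase as well. In the annotation used here, the H3.3 genes his-69 and his-70 have 1 exon and no 3′ UTR. The replication-dependent copy his-57 has up to 3 exons and a 3′ UTR. In an adult hermaphrodite most dividing nuclei are in the germ line, and oocytes store histone mRNA for the embryo. Whether the libraries were made by poly(A) selection is not stated in the sources used here, and the levels of the replication-dependent genes are levels of the RNA that entered the libraries, whatever its 3′ end.

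The 72 genes fell into 60 replication-dependent copies (16 of H2A, 15 of H2B, 14 of H3 and 15 of H4) and 12 others. The others were the H1 gene his-24, the H3.3 genes his-69, his-70, his-71, his-72 and his-74, the intron-bearing H2A, H4 and H2B genes his-35, his-37 and his-41, the H3-type gene his-40, and the short unclassified entries his-39 and his-73. The genes lay in 19 groups when genes closer than 10000 bp were joined, of which 9 held 4 to 8 genes and 1 held 13. Within these groups, neighbouring H3 and H4 genes pointed away from each other in 14 pairs, 234 to 321 bp apart, and neighbouring H2A and H2B genes did so in 16 pairs, 227 to 327 bp apart. A divergent pair of this kind can share a promoter, and its genes are listed side by side in the plot of fold changes.

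Copies of a histone class are nearly identical, and the counting divided shared fragments among them. In 14 sets holding 34 of the 72 genes, all copies had identical expected counts in all 12 libraries, so those copies carry 1 measurement between them and are named together. Only 28.4% to 39.7% of the histone values above 0 were whole numbers, against 93.4% to 93.8% of the values of all genes. The division was not always even. The H2A gene his-16 had 0 counts in 8 libraries and up to 28.8 CPM (counts per 1000000) in wild type, while the sum of his-12, his-16 and his-43 stayed between 253.7 and 381.3 CPM. The H2B gene his-44 had 14.4 CPM in double mutant library 3 beside 100.9 CPM each for his-11 and his-15, and the same value as both in the other 11 libraries. Fold changes of his-16 and his-44 alone therefore carry no information on either gene. Values of his-11 and his-15 that use double mutant library 3 are affected as well. In addition, 11 histone genes overlap a different gene entry (for example his-57 and klp-12, or his-37 and nstp-10), and since the sources name no strand setting for the counting, reads of the overlapping gene cannot be told apart.

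Library totals ran from 31812386 to 32773817 counts. Histone genes took 0.32% to 0.484% of each library. A single gene's level is given below as CPM on library sizes scaled by the trimmed mean of M-values (TMM). Levels of different single genes are ranked only as CPM per kilobase of exon. Sums and shares of groups of genes are in CPM unless given per kilobase, so longer genes weigh more in them. Of the 72 genes, 68 passed the filter on low counts. The H3.3 gene his-69 did not pass, with at most 0.313 CPM in any library. Neither did the H3 gene his-42, with at most 0.0713 CPM, nor his-73, with at most 0.0302 CPM. The fourth, his-39, had 0 counts in all libraries, where 3 counts would have been 0.082 to 0.0992 CPM.

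Within 3 of the genotypes 1 library stood apart in its stage score, the difference in mean log2 CPM between 8 molting genes of the epidermis and 8 oocyte and eggshell genes. The score was 1.86, 1.02 and 1.18 in the double mutant libraries 1 to 3. It was 3.05, 2.36 and -1.09 in dis-3(L75Q), -0.92, 3.03 and 3.15 in eat-2(ad1116), and -3.11, 0.71 and -4.02 in wild type. The libraries apart were thus dis-3(L75Q) 3, eat-2(ad1116) 1 and wild type 2. Counts of called genes, the fold changes of most named histone genes, the summed level of the replication-dependent copies and the medians by position are given below with and without these 3; sums of other groups and shares are given per library or over all libraries only. Without these 3, the wild type libraries scored -3.11 and -4.02 and every mutant library 1.02 to 3.15. They were chosen by a score from these same data, and a fit without them cannot tell stage from genotype. Such a fit called 46.9% to 58.6% of all genes in the mutants against wild type, so a call in it is not particular to a histone gene. All 8 molting genes were detected, with summed levels of 1428.5 to 1976.0 CPM in the double mutant, 477.6 to 2872.2 CPM in dis-3(L75Q), 652.1 to 2592.0 CPM in eat-2(ad1116) and 122.1 to 1254.4 CPM in wild type. The 8 oocyte genes summed to 1061.4 to 1436.9 CPM in the double mutant, 720.3 to 1751.8 CPM in dis-3(L75Q), 547.5 to 2355.9 CPM in eat-2(ad1116) and 1446.3 to 3088.4 CPM in wild type. Of 12 markers of the proliferating and meiotic germ line, all were detected, at 1439.6 to 1529.2 CPM in sum in the double mutant, 1407.8 to 1683.4 CPM in dis-3(L75Q), 1129.3 to 1594.4 CPM in eat-2(ad1116) and 1559.3 to 1861.4 CPM in wild type. In whole worms, fewer cells of a type and less RNA per cell cannot be told apart.

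Most histone RNA came from 16 copies on chromosome IV. They form 4 groups with 1 gene of each core class per group, his-45 to his-48, his-55 to his-58, his-59 to his-62 and his-63 to his-66, and gave 52.9% to 71.2% of all histone CPM in each library. The highest levels per kilobase, averaged over all libraries, were 714.9 for his-57 (H2A), 647.2 for each of the identical H4 copies his-46 and his-56, and 619.8 for his-64 (H4). The highest H3 copies were his-45 and his-55, with 429.7 CPM per kilobase each, and his-59, with 372.9. Of H2B, the same average was 230.5 CPM per kilobase for each of the identical copies his-11 and his-15 and 217.0 for his-48, but the order differed between genotypes. In dis-3(L75Q) his-11, his-15 and his-44 had 241.9 each and his-48 had 196.3. In wild type his-48 had 255.0 and his-62 had 238.9, above the 221.7 of his-11, his-15 and his-44. In the double mutant his-11 and his-15 had 222.2 and his-48 had 220.9. That order cannot be read, because the uneven division in double mutant library 3 favoured his-11 and his-15 over his-44. These orders were not tested. The value of his-57 is the least sure of these, because its annotation holds 3 transcripts, the longest with 3 exons, and it overlaps klp-12. The second source was the chromosome II group of 13 copies (his-9 to his-16, his-25, his-26 and his-42 to his-44), with 19.1% to 26.5% of histone CPM. The H2A copies his-12 and his-43, with 417.1 CPM per kilobase each, were the highest of that group. Together, 3 groups in the middle of chromosome V (his-5 to his-8 with his-39, his-49 to his-54, and his-17 to his-22 with his-27 and his-28) held 19 genes but only 1.92% to 9.71% of histone CPM.

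Summed over the 60 replication-dependent copies, the level was 3059.8, 3622.5 and 3297.8 CPM in the double mutant, 3119.8, 3067.7 and 3583.1 CPM in dis-3(L75Q), 3355.0, 3487.5 and 3271.4 CPM in eat-2(ad1116), and 3969.9, 3204.1 and 4501.7 CPM in wild type. Wild type 1 and 3 lay above all mutant libraries and wild type 2 lay among them, so every group overlapped wild type. The log2 ratio of the means against wild type was -0.23 in the double mutant, -0.26 in dis-3(L75Q) and -0.21 in eat-2(ad1116), given as a description without a test. Without the 3 libraries apart these ratios were -0.35, -0.45 and -0.33. By class, the ratio of means against wild type was lowest for H4 (0.813 in the double mutant, 0.765 in dis-3(L75Q) and 0.812 in eat-2(ad1116)) and nearest to 1 for H2B (0.907, 0.945 and 0.977 in the same order). Per kilobase, mean class levels ran in the order H4, H2A, H3 and H2B in each genotype, for example 2902.0 ± 342.5, 2226.6 ± 114.1, 1983.7 ± 193.3 and 1471.3 ± 129.8 CPM per kilobase in the double mutant (SD, n = 3) and 3569.4 ± 733.5, 2564.3 ± 354.8, 2273.9 ± 426.8 and 1622.8 ± 176.0 CPM per kilobase in wild type.

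The copies did not move as 1 block: the direction differed between position groups. The following grouping was made after the values were seen, and its counts are descriptions. The 16 chromosome IV copies summed to 2094.7, 2487.2 and 2266.3 CPM in the double mutant, 1974.3, 1860.9 and 2443.9 CPM in dis-3(L75Q), 2373.9, 2080.0 and 1890.2 CPM in eat-2(ad1116), and 2942.7, 2142.7 and 3379.2 CPM in wild type. Wild type 1 and 3 were the 2 highest libraries, and each mutant group overlapped wild type through wild type 2. In the middle groups of chromosome V the order was the opposite, with 226.1, 263.9 and 232.5 CPM in the double mutant, 249.5, 239.1 and 138.8 CPM in dis-3(L75Q), 135.0, 341.2 and 347.1 CPM in eat-2(ad1116), and 106.6, 151.7 and 91.1 CPM in wild type. All 3 double mutant libraries lay above wild type, whereas dis-3(L75Q) 3 and eat-2(ad1116) 1 fell below wild type 2. As a share of all histone CPM these groups made up 6.63 ± 0.152% in the double mutant, 5.97 ± 2.05% in dis-3(L75Q) worms, 7.48 ± 3.25% in eat-2(ad1116) worms and 2.94 ± 1.28% in wild type (SD, n = 3).

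**Figure D1:**
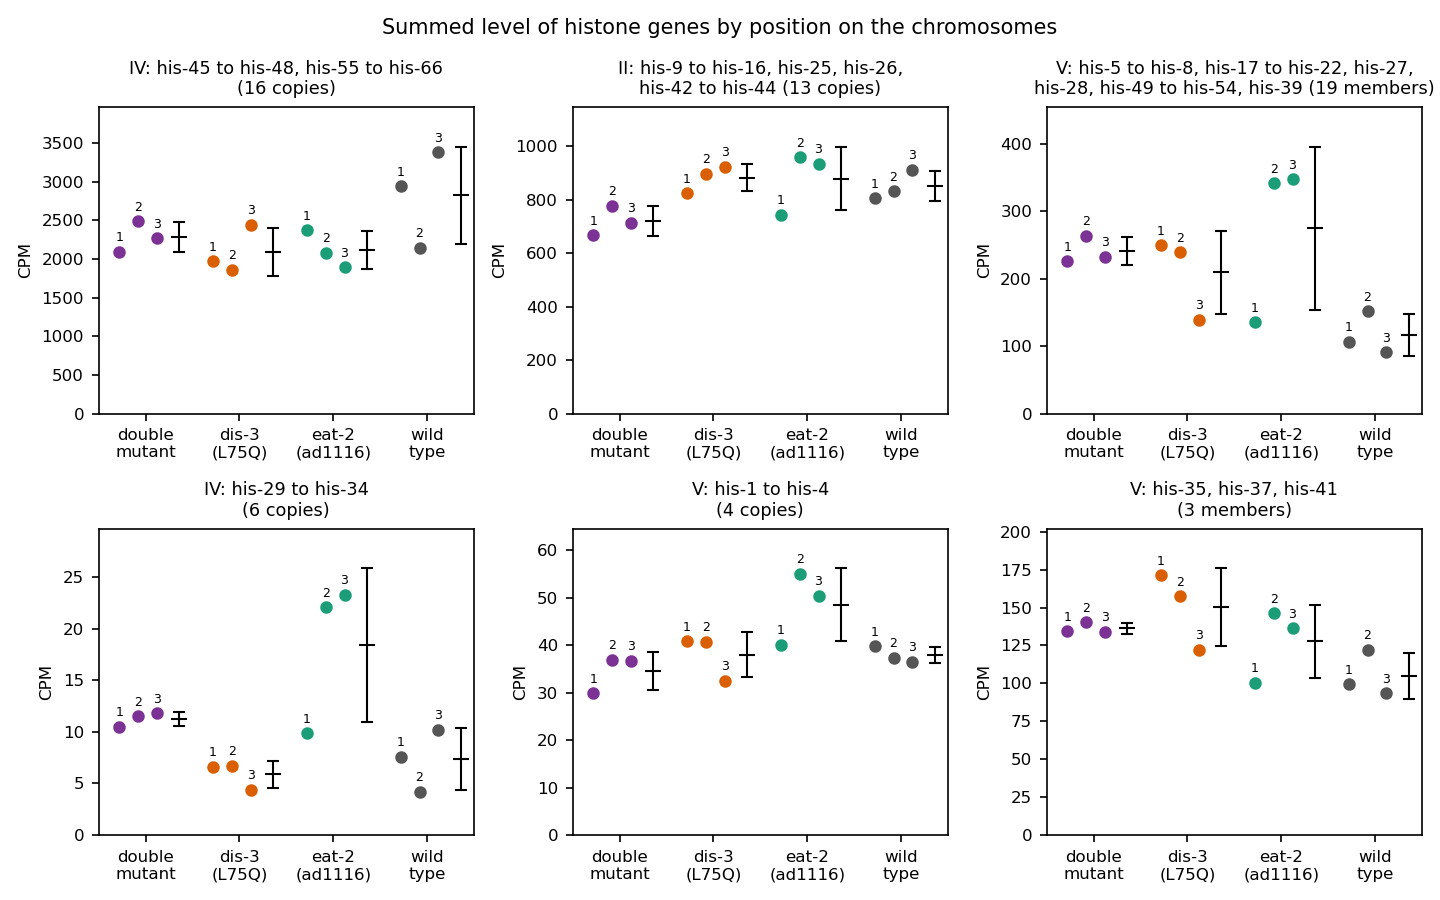
Summed CPM of 6 sets of neighbouring histone genes in each of 12 libraries (points, numbered by replicate), with the mean and SD of each genotype (black bars, n = 3). The chromosome IV copies at the upper left are highest in wild type 1 and 3, at 2942.7 and 3379.2 CPM, and the chromosome V copies at the upper right are lowest there, at 106.6 and 91.1 CPM.

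Read copy by copy, the fold changes come from the same values as the sums and add no support to the split. Of the 16 chromosome IV copies, all 16 had a log2 fold change below 0 in the double mutant, in dis-3(L75Q) and in eat-2(ad1116) against wild type, with medians of -0.27, -0.39 and -0.42. Of the 18 tested copies in the middle of chromosome V, 17, 18 and 18 were above 0, with medians of 1.24, 0.81 and 1.41, against medians of 0.02, 0.02 and -0.01 over all genes tested. The 3 comparisons share the wild type libraries, and identical copies repeat 1 measurement. The H2B gene his-8 was the exception in the double mutant, at -0.46 ± 0.26 (SE). Within genotypes, the library apart in the stage score was also the one apart in these sums: eat-2(ad1116) 1 was the lowest of its genotype in the chromosome V sum and the highest in the chromosome IV sum, dis-3(L75Q) 3 likewise, and wild type 2 the other way round. With the stage score as a term in the fit, the chromosome IV medians were 0.1, -0.03 and 0.01 and the chromosome V medians 0.45, 0.12 and 0.36, in the same order of genotypes. Without the 3 libraries apart they were -0.49, -0.67 and -0.72 on chromosome IV, and 1.33, 1.41 and 1.86 on chromosome V. The part of developmental stage in the genotype differences was not tested beyond these values, and stage and genotype are mixed in this design.

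**Figure D2:**
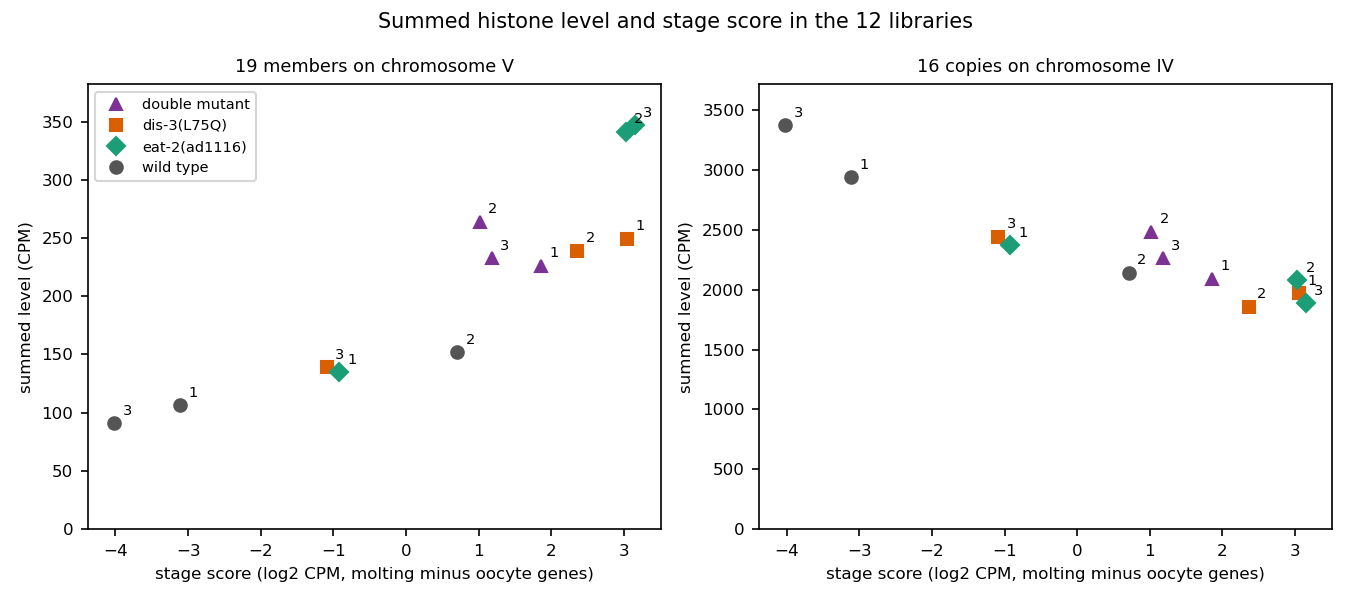
Summed CPM of the 19 histone genes in the middle of chromosome V (left) and of the 16 copies on chromosome IV (right) against the stage score (mean log2 CPM of 8 molting genes less that of 8 oocyte genes). Each point is 1 of 12 libraries, numbered by replicate; wild type 3, with the lowest score of -4.02, has the lowest chromosome V sum (91.1 CPM) and the highest chromosome IV sum (3379.2 CPM).

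In the test of each gene, dis-3(L75Q) against wild type gave no called histone gene. The test was edgeR's quasi-likelihood F test over all 16259 genes that passed the filter, and calls were made at an adjusted p (Benjamini-Hochberg) under 0.05. It called 0 of 68 histone genes, against 0.56% of all genes tested, and the lowest adjusted p was 0.152 (his-37). DESeq2 called 2 (1 higher and 1 lower) and limma-voom 0, where they called 2.08% and 0.535% of all genes. With an unadjusted p under 0.05 there were 32 histone genes (16 higher and 16 lower, 47.1% of those tested), against 16.8% of all genes (9.22% higher and 7.63% lower). In such counts, here and below, each of the 34 genes in sets of identical copies counts apart, and his-16 is included. The histone shares thus repeat measurements and are no test of the histone genes as a set. The median log2 fold change was 0.04 over the 68 genes and 0.02 over all genes. Without wild type 2 the count was 14 (7.92% of all genes), and without all 3 libraries apart it was 45 (22 higher and 23 lower), where 51.6% of all genes were called.

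Of the 68 histone genes, 2 were called for eat-2(ad1116) against wild type, both higher, against 6.21% of all genes (4.08% higher). The H3 copy his-32 (chromosome IV, 8334305 to 8334715, plus strand, WBcel235; a single coding exon) had 2.57, 8.08 and 6.56 CPM in eat-2(ad1116) against 1.78, 1.04 and 1.55 CPM in wild type. Every eat-2(ad1116) library lay above every wild type library, with library 1 the lowest of its genotype. The log2 fold change was 1.97 ± 0.39 (SE), with an edgeR adjusted p of 0.0176. In the double mutant his-32 had 3.9, 3.44 and 3.47 CPM, and in dis-3(L75Q) 1.46, 1.9 and 1.04 CPM, so that the groups carrying eat-2(ad1116) lay above those without it. The difference of the double mutant from dis-3(L75Q), log2 1.3 ± 0.39, was not called (edgeR adjusted p = 0.213), nor was that from wild type, 1.3 ± 0.39 (edgeR adjusted p = 0.0897). The fit without the 3 libraries apart called his-32 by edgeR in eat-2(ad1116) (log2 2.13, adjusted p = 1.16e-05) and in the double mutant (1.09, adjusted p = 0.00133) against wild type, and also between the double mutant and dis-3(L75Q) (1.05, adjusted p = 0.00396).

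The H4 copy his-5 (chromosome V, 8535214 to 8535525, plus strand; a single coding exon), divergent from the H3 copy his-6, had 14.9, 26.0 and 29.9 CPM in eat-2(ad1116) against 11.1, 12.7 and 10.1 CPM in wild type. The groups did not overlap, and the log2 fold change was 1.06 ± 0.26 (edgeR adjusted p = 0.0392). The double mutant had 16.5, 19.6 and 16.8 CPM and dis-3(L75Q) had 17.7, 20.7 and 12.0 CPM. Its neighbour his-6 had 7.65, 16 and 13.9 CPM in eat-2(ad1116) and 5.73, 7.25 and 4.25 CPM in wild type, log2 1.12 ± 0.3, and was not called by edgeR (adjusted p = 0.0529), but was by DESeq2 (adjusted p = 0.00549). Once the 3 libraries apart were left out, edgeR called both in eat-2(ad1116), his-5 at log2 1.39 (adjusted p = 9.17e-06) and his-6 at 1.58 (adjusted p = 2.92e-05). Both calls depended on the settings. With the stage score as a term, his-32 had a log2 fold change of 1.31 (edgeR adjusted p = 0.201) and his-5 one of 0.45 (adjusted p = 0.293), and 0 histone genes were called, against 4.65% of all genes. Fitting only the 6 libraries compared, or leaving out wild type 1 or 3 or eat-2(ad1116) 2 or 3, also ended both calls, while without eat-2(ad1116) 1 there were 38 called histone genes (37.5% of all genes) and without wild type 2 there were 26 (14.9%).

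**Figure D3:**
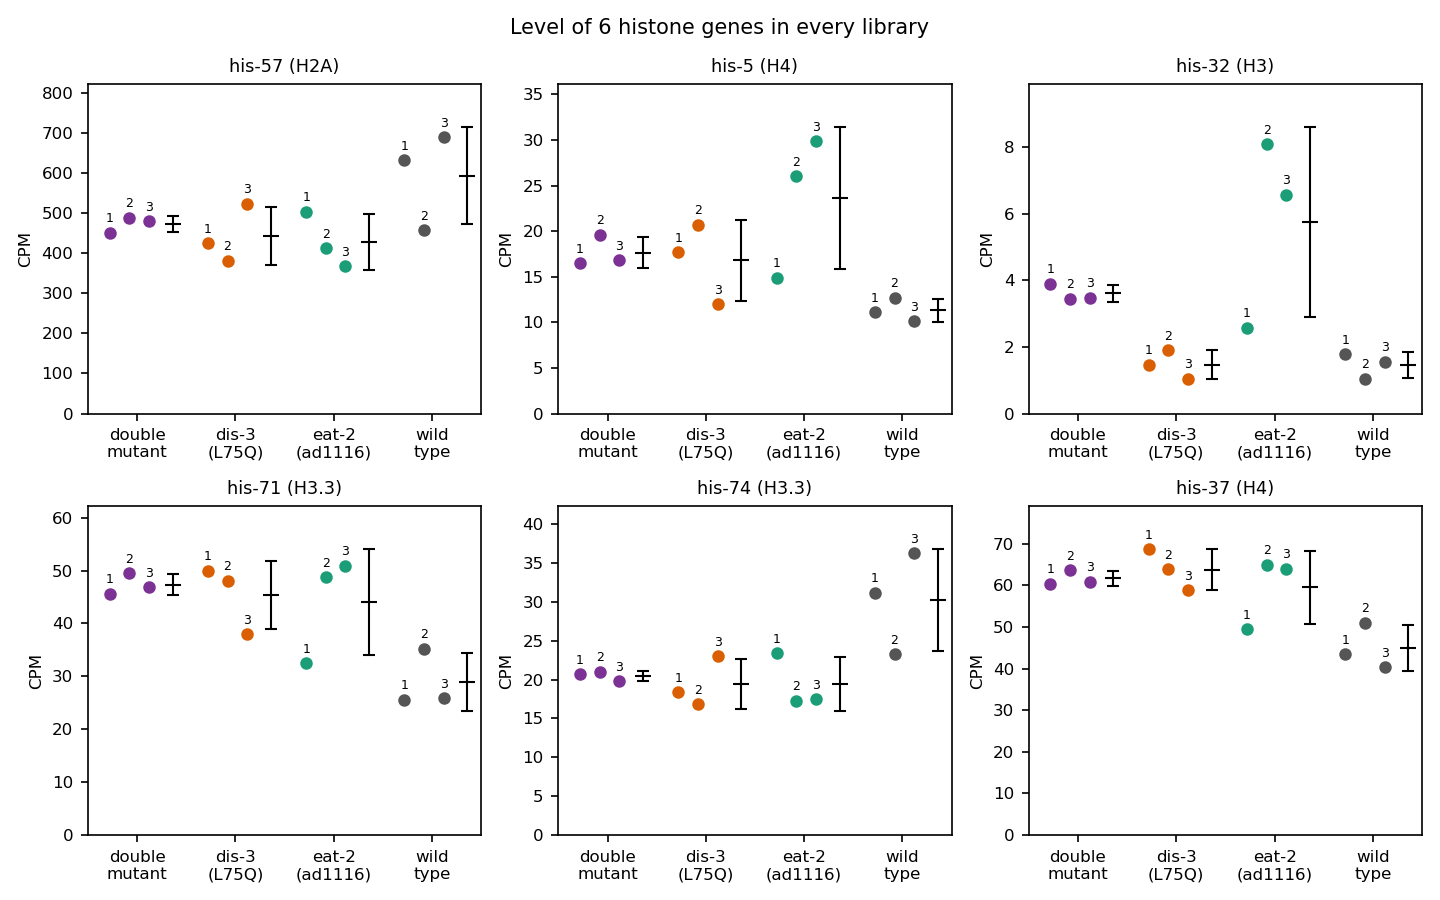
CPM of 6 histone genes in each of 12 libraries (points, numbered by replicate), with the mean and SD of each genotype (black bars, n = 3). The replication-dependent copies his-57, his-5 and his-32 are in the upper row, and the H3.3 genes his-71 and his-74 and the intron-bearing H4 gene his-37 are in the lower row; his-71 lies at 45.6 to 49.5 CPM in the double mutant and at 25.6 to 35.2 CPM in wild type.

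Around his-32, the other 5 copies of its group on chromosome IV (his-29 to his-34) were low in all libraries. The whole group summed to 10.5, 11.5 and 11.8 CPM in the double mutant, 6.62, 6.71 and 4.4 CPM in dis-3(L75Q), 9.87, 22.1 and 23.3 CPM in eat-2(ad1116) and 7.58, 4.21 and 10.2 CPM in wild type. The double mutant lay above dis-3(L75Q) and above wild type without overlap, and eat-2(ad1116) overlapped wild type through library 1. The identical H2B copies his-29 and his-34 had log2 fold changes of 1.39 ± 0.4 in eat-2(ad1116) against wild type (edgeR adjusted p = 0.0649, not called; DESeq2 adjusted p = 0.0127, called). In the fit without those 3 libraries their log2 fold change was 1.48, which edgeR called (adjusted p = 2.54e-04). The identical H2A copies his-30 and his-33 had 0.248, 0.344 and 0.408 CPM each in dis-3(L75Q) against 0.824, 0.237 and 1.4 CPM in wild type, and overlapped.

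Over all histone genes, eat-2(ad1116) against wild type had 36 of 68 histone genes at an unadjusted p under 0.05 (23 higher and 13 lower, 52.9%), against 26.9% of all genes (16.5% higher and 10.4% lower). The median log2 fold change was 0.11, against -0.01 over all genes. DESeq2 called 23 histone genes, 21 of them higher (14.0% of all genes), and limma-voom called 1 (5.5%). With library totals in place of TMM scaling, 21 were called, all higher (10.5% of all genes), and in a fit of these 6 libraries alone 0 were (0.529%). Without the 3 libraries apart, 53 were called (31 higher and 22 lower, 58.6% of all genes).

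The double mutant against wild type gave 0 of 68 called histone genes, against 4.27% of all genes. DESeq2 called 16, 15 of them higher (11.1% of all genes), limma-voom 0 (4.08%), and edgeR on these 6 libraries alone 17, all higher (9.03%). At an unadjusted p under 0.05 there were 29 (19 higher and 10 lower, 42.6%), against 23.0% of all genes (13.8% higher and 9.23% lower). With library totals in place of TMM scaling 6 were called, all higher (6.43% of all genes), and without wild type 2 there were 18 (14.5%). In 23 of 68 histone genes all 3 double mutant libraries lay above all wild type libraries, where 20.4% of all genes did so. In 8 of 68 they lay below all wild type libraries. No share of all genes is given here for that direction, so this count cannot be read as particular to histone genes. Among the 23 higher genes were 15 of the 18 tested copies in the middle of chromosome V. Most of those 15 belong to sets of identical copies that carry 1 measurement each. The identical H2A copies his-19, his-21, his-51 and his-53 had 18.6, 20.6 and 19.3 CPM each in the double mutant against 6.82, 10.6 and 4.99 CPM in wild type. The groups did not overlap, and the log2 fold change was 1.39 ± 0.41 (edgeR adjusted p = 0.0887). The identical H2B copies his-20, his-22, his-52 and his-54 had 7.8, 9.6 and 9.28 CPM in the double mutant against 3.1, 5.06 and 3.13 CPM in wild type, log2 1.24 ± 0.39 (edgeR adjusted p = 0.1). DESeq2 called both sets (adjusted p = 0.0153 for the H2A copies and 0.0276 for the H2B copies). So did edgeR without the 3 libraries apart, at log2 1.7 (adjusted p = 5.95e-06) and 1.48 (adjusted p = 3.41e-05), while with the stage score as a term they were at 0.51 and 0.45 and not called (edgeR adjusted p = 0.202 and 0.345). Without the 3 libraries apart, 49 histone genes were called (24 higher and 25 lower, 46.9% of all genes).

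**Figure D4:**
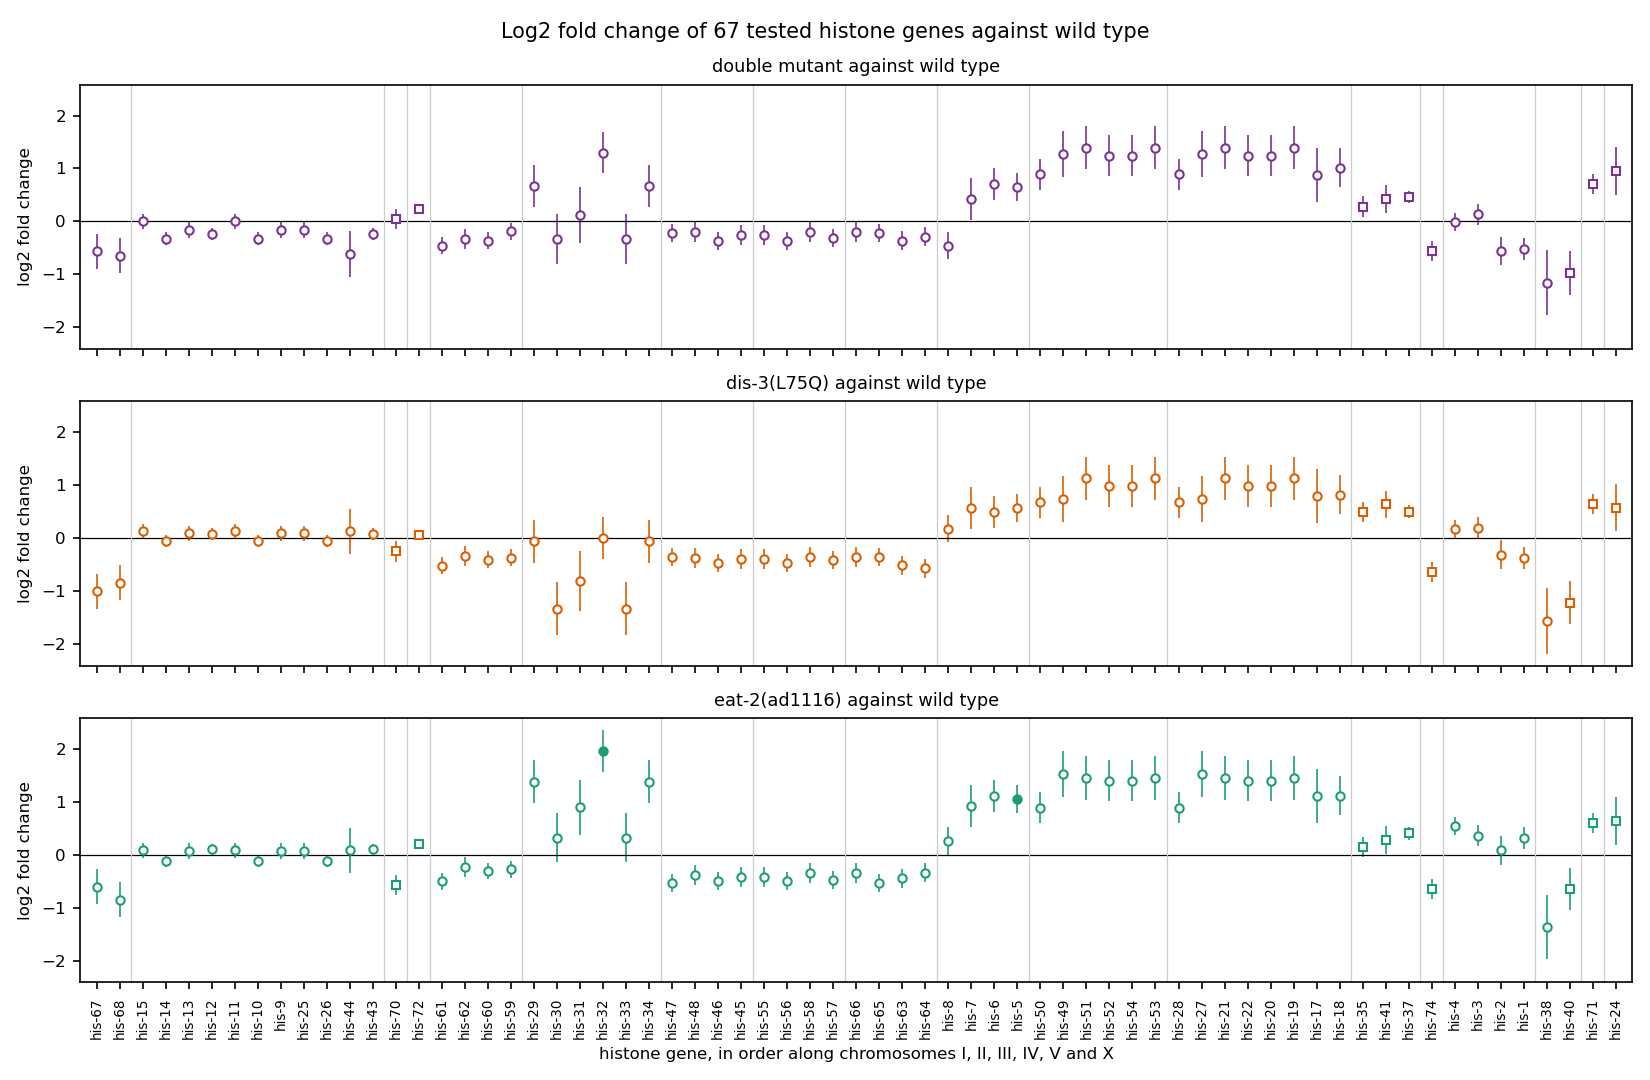
Log2 fold change against wild type of 67 histone genes (his-16 is left out), in order along the chromosomes, for the double mutant, dis-3(L75Q) and eat-2(ad1116); bars are standard errors, circles replication-dependent copies, squares the other histone genes, filled symbols the 2 called genes, and vertical lines part the position groups. The 18 copies in the middle of chromosome V, from his-8 to his-18 along the axis, lie above 0 in eat-2(ad1116) and dis-3(L75Q), with medians of 1.41 and 0.81, and the chromosome IV copies around his-45 to his-66 lie below it.

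The double mutant against eat-2(ad1116), the effect of the dis-3 allele in eat-2 mutants, gave 0 of 68 called histone genes, against 0.351% of all genes. DESeq2 called 1 (1.07% of all genes) and limma-voom 0 (0.375%). At an unadjusted p under 0.05 there were 7 (1 higher and 6 lower, 10.3%), against 5.64% of all genes (2.85% higher and 2.79% lower). The smallest adjusted p was that of the H4 gene his-1, in the chromosome V group his-1 to his-4. It had 4.51, 6.38 and 7.18 CPM in the double mutant against 9.08, 10.6 and 13 CPM in eat-2(ad1116), without overlap, log2 -0.85 ± 0.21 (edgeR adjusted p = 0.241). It was called by DESeq2 (log2 -0.89, adjusted p = 0.00831) and by edgeR without the 3 libraries apart (-0.99, adjusted p = 0.0026). That group as a whole summed to 29.9, 36.9 and 36.7 CPM in the double mutant and to 40.1, 55.0 and 50.4 CPM in eat-2(ad1116), against 40.8, 40.7 and 32.5 CPM in dis-3(L75Q) and 39.8, 37.3 and 36.5 CPM in wild type. Its eat-2(ad1116) libraries lay above the double mutant and above wild type, and its double mutant and dis-3(L75Q) libraries overlapped. Without eat-2(ad1116) 1, 5 histone genes were called, all lower in the double mutant (1.55% of all genes), and without all 3 libraries apart there were 34 (6 higher and 28 lower, 25.1% of all genes).

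The double mutant against dis-3(L75Q), the effect of the eat-2 allele in dis-3 mutants, gave 0 of 68 called histone genes, against 1.24% of all genes. DESeq2 called 1 (3.74%) and limma-voom 0 (1.26%). At an unadjusted p under 0.05 there were again 7 (1 higher and 6 lower), against 10.4% of all genes (4.58% higher and 5.82% lower). With the stage score as a term 1 was called (4.69% of all genes), and without the 3 libraries apart 15 were (4 higher and 11 lower), where 25.0% of all genes were called. In the chromosome II group the double mutant was the lowest genotype. Its 13 copies summed to 666.5, 777.5 and 713.0 CPM in the double mutant, 824.7, 896.2 and 922.3 CPM in dis-3(L75Q), 743.5, 959.4 and 933.8 CPM in eat-2(ad1116), and 805.2, 831.5 and 912.2 CPM in wild type. All double mutant libraries lay below all dis-3(L75Q) and wild type libraries, and double mutant 2 lay above eat-2(ad1116) 1. The identical H2A copies his-12 and his-43 had 126.8, 144.8 and 137.0 CPM each in the double mutant, 151.6, 177.2 and 180.2 CPM in dis-3(L75Q), 149.8, 184.4 and 187.0 CPM in eat-2(ad1116) and 156.6, 156.6 and 170.0 CPM in wild type. The double mutant lay below each of the other genotypes without overlap, with log2 fold changes of -0.32 ± 0.11 against dis-3(L75Q), -0.35 ± 0.11 against eat-2(ad1116) and -0.24 ± 0.11 against wild type. None was called (edgeR adjusted p = 0.277, 0.459 and 0.21). Leaving out the 3 libraries apart, edgeR called all 3, at -0.32, -0.47 and -0.29 (adjusted p = 0.0165, 0.00193 and 0.0151). These comparisons share the double mutant libraries.

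The interaction term asks whether the double mutant departs from the sum of the 2 single-mutant effects on the log2 scale. It called 0 of 68 histone genes, against 0.0615% of all genes. DESeq2 called 1 (0.32%) and limma-voom 0 (0.0369%). At an unadjusted p under 0.05 there were 18 (12 higher and 6 lower, 26.5%), against 7.26% of all genes (3.11% higher and 4.15% lower), and the lowest adjusted p was 0.522. All 16 chromosome IV copies had an interaction above 0 (median 0.55) and all 18 tested copies in the middle of chromosome V one below 0 (median -1.06). With the stage score as a term these medians were 0.14 and -0.03. Without eat-2(ad1116) 1, 24 histone genes were called (13.5% of all genes), and without all 3 libraries apart 53 were (53.0%).

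Of the genes outside the replication-dependent class, the H3.3 genes differed in direction. H3.3 replaces H3 in chromatin outside replication. The X-linked his-71 had 45.6, 49.5 and 46.8 CPM in the double mutant, 50.0, 48.1 and 38 CPM in dis-3(L75Q), 32.5, 48.7 and 50.9 CPM in eat-2(ad1116) and 25.6, 35.2 and 25.9 CPM in wild type. The double mutant and dis-3(L75Q) lay above wild type without overlap, and eat-2(ad1116) 1 lay below wild type 2. The log2 fold changes against wild type were 0.71 ± 0.19, 0.65 ± 0.19 and 0.61 ± 0.19 in that order, and none was called (edgeR adjusted p = 0.0591, 0.229 and 0.0758). DESeq2 called his-71 in the double mutant and in eat-2(ad1116) (adjusted p = 0.0153 and 0.0278). After the 3 libraries apart were left out, edgeR called it in all 3 mutants, at log2 0.85, 0.95 and 0.95 (adjusted p = 1.31e-05, 8.53e-06 and 4.82e-06). The stage score term left it at 0.33, 0.25 and 0.15, not called (edgeR adjusted p = 0.0969, 0.766 and 0.489).

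On chromosome V, his-74 went the other way, with 20.7, 21.0 and 19.8 CPM in the double mutant, 18.4, 16.8 and 23.0 CPM in dis-3(L75Q), 23.4, 17.3 and 17.5 CPM in eat-2(ad1116) and 31.2, 23.3 and 36.3 CPM in wild type. The double mutant and dis-3(L75Q) lay below wild type, and eat-2(ad1116) 1 lay just above wild type 2. Its log2 fold changes were -0.56 ± 0.19, -0.64 ± 0.19 and -0.64 ± 0.19, none called (edgeR adjusted p = 0.117, 0.242 and 0.0665). DESeq2 called his-74 in the double mutant and in eat-2(ad1116) (adjusted p = 0.0466 and 0.0275). When the 3 libraries apart were left out, edgeR called it in all 3 mutants, at -0.74, -0.92 and -0.96 (adjusted p = 1.91e-04, 7.30e-05 and 3.66e-05), and with the stage score as a term in none, at -0.15, -0.24 and -0.21 (edgeR adjusted p = 0.454, 0.941 and 0.366).

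The most abundant H3.3 gene per kilobase, his-72, stayed between 69.5 and 89.5 CPM. It had 79.3, 89.5 and 84.5 CPM in the double mutant, 74.1, 77.5 and 73.7 CPM in dis-3(L75Q), 76.3, 84.0 and 88.4 CPM in eat-2(ad1116) and 71.2, 69.5 and 74.6 CPM in wild type. The double mutant and eat-2(ad1116) lay above wild type without overlap, by log2 0.23 ± 0.08 and 0.21 ± 0.08 (edgeR adjusted p = 0.129 and 0.141, not called). For his-72, edgeR without the 3 libraries apart called both, at 0.19 and 0.24 (adjusted p = 0.0485 and 0.0207). The H3.3 gene his-70 had 11.6, 12.3 and 13.1 CPM in the double mutant, 9.13, 8.21 and 12.6 CPM in dis-3(L75Q), 9.49, 6.36 and 8.28 CPM in eat-2(ad1116) and 11.1, 12.7 and 11.8 CPM in wild type. Here eat-2(ad1116) lay below both the double mutant and wild type, with the double mutant at log2 0.61 ± 0.19 against eat-2(ad1116) (edgeR adjusted p = 0.479, not called). In the fit without the 3 libraries apart that difference was 0.73 and called, and his-70 in eat-2(ad1116), compared with wild type, was called at -0.65 (edgeR adjusted p = 0.00363 and 0.00398). Per kilobase, H3.3 made up 12.3 ± 0.568% of H3 and H3.3 RNA together in the double mutant, 12.0 ± 1.1% in dis-3(L75Q) worms, 11.7 ± 1.1% in eat-2(ad1116) worms and 9.83 ± 1.62% in wild type (SD, n = 3). Among wild type libraries, number 2 had 11.7%, within the range of the mutants, and numbers 1 and 3 had 9.14% and 8.67%.

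The intron-bearing genes his-35 (H2A), his-37 (H4) and his-41 (H2B) lie together on chromosome V. Of these his-37 had the lowest adjusted p of all histone genes in dis-3(L75Q) against wild type. Its level was 60.4, 63.7 and 60.9 CPM in the double mutant, 68.7, 63.9 and 58.8 CPM in dis-3(L75Q), 49.5, 65.0 and 64.0 CPM in eat-2(ad1116) and 43.5, 51.0 and 40.3 CPM in wild type. The double mutant and dis-3(L75Q) lay above wild type without overlap, by log2 0.46 ± 0.12 and 0.5 ± 0.12 (edgeR adjusted p = 0.0675 and 0.152, not called). DESeq2 called his-37 in the double mutant, dis-3(L75Q) and eat-2(ad1116) (adjusted p = 0.0279, 0.0148 and 0.0279), and so did edgeR without the 3 libraries apart, at log2 0.53, 0.69 and 0.62 (adjusted p = 1.89e-04, 4.39e-05 and 5.90e-05). The stage score term left these at 0.22, 0.26 and 0.13, not called (edgeR adjusted p = 0.157, 0.415 and 0.443). The level of his-35 averaged 56.8 ± 3.18 CPM in the double mutant, 65.8 ± 15.0 in dis-3(L75Q) worms, 51.8 ± 10.9 in eat-2(ad1116) worms and 46.8 ± 6.64 in wild type (SD, n = 3), and that of his-41 averaged 17.8 ± 1.43, 20.7 ± 5.71, 16.3 ± 4.76 and 13.3 ± 3.01 CPM in the same order. Neither was called against wild type (edgeR adjusted p = 0.389, 0.294 and 0.618 for his-35 and 0.345, 0.294 and 0.466 for his-41, in the order of the mutants). The log2 fold change of the double mutant was 0.28 ± 0.19 for his-35, and both genes were at -0.13 in it with the stage score as a term. Both genes were called by edgeR without the 3 libraries apart in all 3 mutants, at 0.38, 0.81 and 0.43 for his-35 (adjusted p = 0.00303, 3.21e-05 and 0.00156) and 0.6, 1.07 and 0.7 for his-41 (adjusted p = 0.00296, 1.02e-04 and 0.00124). Together the 3 genes summed to 134.5, 140.3 and 134.0 CPM in the double mutant and to 99.5, 122.1 and 93.5 CPM in wild type, without overlap.

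The H1 gene his-24, the only linker histone with a his- symbol here, was low. It had 4.66, 3.59 and 4.9 CPM in the double mutant, 3.51, 4.29 and 2.41 CPM in dis-3(L75Q), 2.3, 6.36 and 2.05 CPM in eat-2(ad1116) and 1.9, 3.42 and 1.49 CPM in wild type. The double mutant lay above wild type without overlap, by log2 0.95 ± 0.45 (edgeR adjusted p = 0.235, not called). The gene without the 3 libraries apart was at 1.35 in the double mutant and 1.31 in eat-2(ad1116), both called (edgeR adjusted p = 0.0357 and 0.0424). On the X chromosome, the H3-type gene his-40 and its divergent H4 neighbour his-38 were low and lowest in dis-3(L75Q). The level of his-40 was 0.731, 1.27 and 1.26 CPM in the double mutant, 0.695, 0.818 and 1.24 CPM in dis-3(L75Q), 2.16, 0.815 and 1.12 CPM in eat-2(ad1116) and 2.38, 1.43 and 2.62 CPM in wild type. The double mutant and dis-3(L75Q) lay below wild type without overlap, by log2 -0.98 ± 0.41 and -1.22 ± 0.41 (edgeR adjusted p = 0.185 and 0.286, not called). The his-40 difference was called by edgeR without the 3 libraries apart in the double mutant, dis-3(L75Q) and eat-2(ad1116), at -1.22, -1.69 and -1.37 (adjusted p = 0.00457, 0.00148 and 0.00354). The stage score term left his-40 at -0.13, -0.39 and 0.21. The H4 and H2A genes his-67 and his-68 on chromosome I were also lower in mean in each mutant, with sums of 31, 43.0 and 35.6 CPM in the double mutant, 22.8, 22.9 and 39.3 CPM in dis-3(L75Q), 49.4, 29.2 and 25.7 CPM in eat-2(ad1116) and 62.1, 34.9 and 67.8 CPM in wild type. Each mutant overlapped wild type through wild type 2.

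Genes that work with histones were read from lists. Over all genes tested, 23.0%, 16.8% and 26.9% had an unadjusted p under 0.05 in the double mutant, dis-3(L75Q) and eat-2(ad1116) against wild type, edgeR called 4.27%, 0.56% and 6.21%, and the medians were 0.02, 0.02 and -0.01. Of 26 tested genes for the 3′ end and turnover of histone mRNA, edgeR called 0 in the double mutant, dis-3(L75Q) and eat-2(ad1116) against wild type. In that order, 7, 0 and 7 (26.9%, 0% and 26.9% of the list) had an unadjusted p below 0.05, shares above, below and equal to those of all genes. Of the same list DESeq2 called 2, 0 and 2, limma-voom calling 0 in each, and the median log2 fold changes were -0.19, -0.11 and -0.2. The gene cdl-1, which encodes the stem-loop binding protein, averaged 29.2 ± 2.19 CPM in the double mutant, 29.8 ± 2.81 in dis-3(L75Q) worms, 29.9 ± 3.64 in eat-2(ad1116) worms and 34.9 ± 5.53 in wild type (SD, n = 3). Of 40 tested genes of DNA replication, edgeR, DESeq2 and limma-voom each called 0 in the mutants against wild type, with 0, 7 and 4 (0%, 17.5% and 10.0%) at an unadjusted p under 0.05 in edgeR. Their medians were -0.25, -0.33 and -0.3 in the same order, with 1, 0 and 2 genes above 0. The list summed to 2617.8 to 2937.8 CPM in the double mutant, 2486.6 to 2835.8 in dis-3(L75Q) worms, 2262.3 to 3522.6 in eat-2(ad1116) worms and 2782.8 to 3769.0 in wild type.

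Of 12 histone chaperones, edgeR called 1, nap-1, which encodes a nucleosome assembly protein that carries H2A and H2B. It had 695.9, 694.8 and 688.5 CPM in the double mutant, 868.1, 874.7 and 852.5 CPM in dis-3(L75Q), 628.3, 671.7 and 698.2 CPM in eat-2(ad1116) and 865.1, 842.9 and 854.4 CPM in wild type. All 6 libraries with the eat-2 allele lay below all 6 without it. It fell in the double mutant against wild type, with a log2 fold change of -0.3 ± 0.07 (edgeR adjusted p = 0.046), and in eat-2(ad1116) against wild type, with -0.36 ± 0.07 (adjusted p = 0.0186). Against dis-3(L75Q) the double mutant was at -0.32 ± 0.07, not called by edgeR (adjusted p = 0.0734) or limma-voom (adjusted p = 0.0565), but called by DESeq2 (-0.36, adjusted p = 2.63e-08). Fitted with the stage score term, edgeR called it (-0.32, adjusted p = 0.0123), as it did without the 3 libraries apart (-0.38, adjusted p = 0.00125).

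Among 10 tested H1 and variant histone genes without a his- symbol, edgeR called 0 in the double mutant, dis-3(L75Q) and eat-2(ad1116) against wild type, where 3, 3 and 4 (30.0%, 30.0% and 40%) had an unadjusted p below 0.05, against 23.0%, 16.8% and 26.9% of all genes. With 10 genes, 1 gene moves these shares by 10 percentage points. By DESeq2 the counts in the same order were 1, 0 and 1, and by limma-voom 1, 0 and 0. The H2A.Z gene htz-1 averaged 75.7 ± 2.59 CPM in the double mutant, 67.6 ± 4.22 in dis-3(L75Q) worms, 73.2 ± 6.99 in eat-2(ad1116) worms and 71.3 ± 7.69 in wild type, with log2 fold changes against wild type of 0.09 ± 0.1, -0.08 ± 0.1 and 0.04 ± 0.1. Of the marker genes of stage and cell type, edgeR called 1 against wild type, the pharynx regulator pha-4, taken here as an embryo marker. It had 5.99, 9.49 and 9.15 CPM in eat-2(ad1116) against 4.57, 4.87 and 3.53 CPM in wild type (log2 0.92 ± 0.21, edgeR adjusted p = 0.0282). What this difference stands for was not tested. Fitted with the stage score term, pha-4 was at 0.56 and not called (edgeR adjusted p = 0.168). Of the 8 embryo markers only 3 passed the filter. The whole list, pha-4 included, summed to 16.2 to 18.6 CPM in the double mutant and 14.1 to 16.8 CPM in dis-3(L75Q). Its sums were 14.2 to 20.4 CPM in eat-2(ad1116) and 10.3 to 15.6 CPM in wild type. The 6 sperm markers summed to 219.4 to 291.3 CPM in the double mutant, 130.4 to 318.8 in dis-3(L75Q) worms, 104.2 to 319.7 in eat-2(ad1116) worms and 269.2 to 411.0 in wild type.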

How the data were processed

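Each file holds expected counts per gene as the authors deposited them, estimated fragment numbers scaled neither to depth nor to length, per the file headers. STAR 2.7.0e and RSEM 1.3.1 and the builds WBcel235 and ce11 are named in the submitters' processing notes. Annotation, trimming, RNA selection and strand use were not given in the sources used here. The deposited expected counts were rounded to whole numbers, and all 12 libraries were fitted together with edgeR 4.0.16 in R 4.3.3 (robust quasi-likelihood F test, TMM, filterByExpr, genotype only), two-sided, with Benjamini-Hochberg adjustment over 16259 genes. Alternatives used DESeq2 1.42.0, limma 3.58.1 and other settings. Each p-value of this fit sets a difference between genotypes against a spread estimated from all 12 libraries together and moderated across genes. That spread is one between independent harvests, 3 per genotype.

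Distinct symbols of copies came from RefSeq's WBcel235 gene table, and positions, exons and transcripts from the Ensembl release 115 annotation. Levels per kilobase use annotated exon length, which holds no UTR for most copies. The members, lists, named genes and tests were chosen with earlier results of these data known. Named were called members, the 3 highest copies per class, non-canonical members, cdl-1, htz-1 and called list genes; other genes were picked after their values were seen. Proteins were not compared, and no sequence is shown. Of the listed genes, pup-1 and pold-1 were not found by symbol. On data simulated for dis-3(L75Q) against wild type over 16259 genes, the test recovered 4%, 22%, 78% and 90% of genes changed 1.5-, 2-, 4- and 8-fold, with 1 false call of 98. A floor of 3 counts covers counting error only.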

Additional observations from a re-analysis of the deposited data

How the results depend on the processing

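Alternative settings gave 2121 results for 126 pairs of a named histone gene and a comparison. Identical copies among them, such as his-12 and his-43, repeat 1 measurement in these counts. Of the 2121, 1903 stayed on the same side of the threshold with the same direction. A further 83 had the opposite sign and were not called in either fit, 120 passed the threshold only in the alternative, 15 only in the fit reported, and 0 of the called changes reversed. Of the 120, 74 came from leaving out dis-3(L75Q) 3, eat-2(ad1116) 1 and wild type 2 together, the libraries apart in the stage score. Only 2 of the 126 pairs were called in the fit reported, so most of the 1903 were uncalled in both fits. These 2, his-32 and his-5 in eat-2(ad1116) against wild type, kept their calls in 9 and 8 of 16 alternatives. The 15 lost calls are theirs. Their log2 fold changes were 1.31 to 2.35 and 0.45 to 1.39 over the alternatives, with edgeR adjusted p from 1.16e-05 to 0.201 and from 9.17e-06 to 0.293.

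The counts of called histone genes moved most. In dis-3(L75Q) against wild type, with 0 called, DESeq2 called 2, the fit without the 3 libraries 45, and leaving out each library in turn gave 0 to 14 (14 without wild type 2). In eat-2(ad1116) against wild type, with 2 called, library totals gave 21, DESeq2 23, limma-voom 1, a filter of at least 1 CPM 8, the stage score term 0, only the libraries compared 0, an adjusted p under 0.01 0, the fit without the 3 libraries 53, and leaving out each library 0 to 38 (38 without eat-2(ad1116) 1). Between the double mutant and eat-2(ad1116), with 0 called, DESeq2 called 1, the fit without the 3 libraries 34, and leaving out each library 0 to 5. Against dis-3(L75Q), with 0 called, DESeq2 called 1, the stage score term 1 and the fit without the 3 libraries 15, and leaving out each library gave 0. Against wild type, with 0 called, library totals gave 6, DESeq2 16, only the libraries compared 17, the fit without the 3 libraries 49, and leaving out each library 0 to 18 (18 without wild type 2). For the interaction, with 0 called, DESeq2 called 1, the fit without the 3 libraries 53, and leaving out each library 0 to 24 (24 without eat-2(ad1116) 1). The cause was not tested. With copies under 1 Ensembl symbol summed before the fit, chosen after seeing the data, 2 symbols were called between eat-2(ad1116) and wild type and 0 in the other comparisons. No share of all genes called is given here for that fit or for the filter of at least 1 CPM. Their counts therefore cannot be read as particular to histone genes. The summed replication-dependent level kept its direction against wild type under the alternatives run on it (other scalings, all his- genes, the sum without his-57, also chosen after seeing the data, and libraries left out). The stage score term was not applied to this sum. Leaving out each library gave log2 ratios of -0.35 to -0.11 in the double mutant, -0.38 to -0.14 in dis-3(L75Q) and -0.33 to -0.09 in eat-2(ad1116).

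Replicate numbers did not pair the libraries: deviations from the genotype means correlated over 0.1 in 7 of 18 same-numbered pairs (-0.63 to 0.42), and 2 of 12 libraries correlated best with their own number. With the replicate block, 0 histone genes were called between eat-2(ad1116) and wild type and 0 in the other comparisons.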
